A study of Mus musculus with 3 samples.

Results

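Glucose is broken down to pyruvate by a chain of cytosolic enzymes, and many of their genes are also targets of the hypoxia-inducible factor HIF. Here 32 genes of that chain and of the HIF response, out of 54456 gene symbols in the deposited matrices, were described in lung macrophages and in the cells sorted with them. The 32 were taken by symbol, and each was found in the files. The mice were wild-type C57BL/6 animals that received an intratracheal dose of 50 µL, and lungs were taken 24 h later. The 3 groups were LPS (4 mg/kg) given together with Reg3g (6 µg), LPS alone (4 mg/kg), and PBS. LPS is a bacterial outer membrane lipid that triggers acute lung inflammation, and Reg3g is a secreted antimicrobial C-type lectin.

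Live cells positive for CD45 and F4/80, negative for Ly6G and positive for CD11b or CD11c were sorted and pooled from 3 mice per group, and each pool became a single droplet library read at transcript 3′ ends. With 1 library per group, from pooled animals, there was no test between groups, and the spread between mice is unknown. Every interval below is a 95% interval that covers counting error only. The libraries held 60942042 UMIs (molecular tags, each counted once) over 10213 barcodes for LPS with Reg3g, 70474636 over 15015 for LPS and 52354207 over 8475 for PBS. Between 28 and 37 barcodes were shared by any pair of libraries, and 0 by all 3.

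Cells were clustered with the 32 genes and 67 further pathway genes left out of the variable genes, and clusters were called X-like from marker genes, with names rebuilt here. Alveolar-macrophage-like cells numbered 4055 with LPS and Reg3g, 4967 with LPS and 3546 with PBS, and monocyte-like cells 4091, 5882 and 2275 in the same libraries. The monocyte-like class joined classical and nonclassical monocyte clusters. The 17 alveolar macrophage markers summed to 13972, 13956 and 19130 CPM, the UMIs of a gene scaled to 1e+06 UMIs of the class, in the alveolar-macrophage-like cells, against 1269, 1235 and 1208 CPM in the monocyte-like cells. The 12 classical monocyte markers parted the classes less, with 5977, 5895 and 7844 CPM in the alveolar-macrophage-like cells. In the monocyte-like cells they summed to 8353, 8002 and 10652 CPM, and Chil3 is on both lists. The sort also held smaller numbers of interstitial-macrophage-like, dendritic, neutrophil-like, lymphoid and structural cells. The PBS alveolar-macrophage-like cells came for 93.2% from a cluster led by Fabp1 and Krt19, while those of both LPS libraries came mainly from clusters led by Cxcl3 and Car4, by Fstl1 and Inhba, and by Tnf and Cxcl1.

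In well-oxygenated cells, prolyl hydroxylases of the Egln family mark the HIF alpha subunit for destruction. When oxygen is short, or when inflammatory signals raise Hif1a, the stabilised factor binds a short core sequence in target promoters and turns on glucose uptake, glycolysis and lactate production. Macrophages activated by LPS are known for a shift toward glycolysis. Alveolar macrophages live on the air side of the lung, where glucose is scarce and surfactant lipid is plentiful.

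In alveolar-macrophage-like cells Slc2a1, Pfkl, Pgam1, Hk2, Eno1 and Ldha stood at least 2-fold higher in the LPS library than in the PBS library, and Pdk1 and Pfkfb4 at least 2-fold lower. Slc2a1, which encodes the glucose transporter GLUT1, stood at 38.3 CPM with LPS and Reg3g, 38.2 CPM with LPS and 7.37 CPM with PBS. Its log2 ratio of LPS over PBS was 2.37 (2.16 to 2.59), the highest of those measured. At the other end, Pdk1, the kinase that shuts off pyruvate dehydrogenase, stood at 8.52 CPM with LPS and Reg3g, 6.80 CPM with LPS and 23.0 CPM with PBS, and its log2 ratio of LPS over PBS was -1.76 (-1.99 to -1.53). The contrast of LPS with Reg3g over LPS and that of LPS over PBS use the same LPS library, so their values are set side by side only.

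Of the 32 genes, 24 reached 10 CPM in the LPS or the PBS library, the floor used for ratios. In the LPS library 6 of these exceeded their PBS level by 2-fold or more and 2 fell short of it by as much, where over all 7837 genes past the floor the background was 5.61% on the higher side and 13.9% on the lower side. A gene can pass the floor through its higher library alone, so these counts only describe. The median log2 ratio was 0.30 over the 24 genes and -0.25 over all 7837, and 16 of the 24 lay above the all-gene median. Ferritin heavy chain Fth1 took 7.92% of the class UMIs with LPS and Reg3g and 8.79% with LPS, against 1.87% with PBS, and its part in the all-gene shift was not tested. Scaling by the median of ratios or by a trimmed mean gave 7 higher and 1 lower, with Pgk1 joining the higher genes and Pfkfb4 leaving the lower ones.

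**Figure D1:**
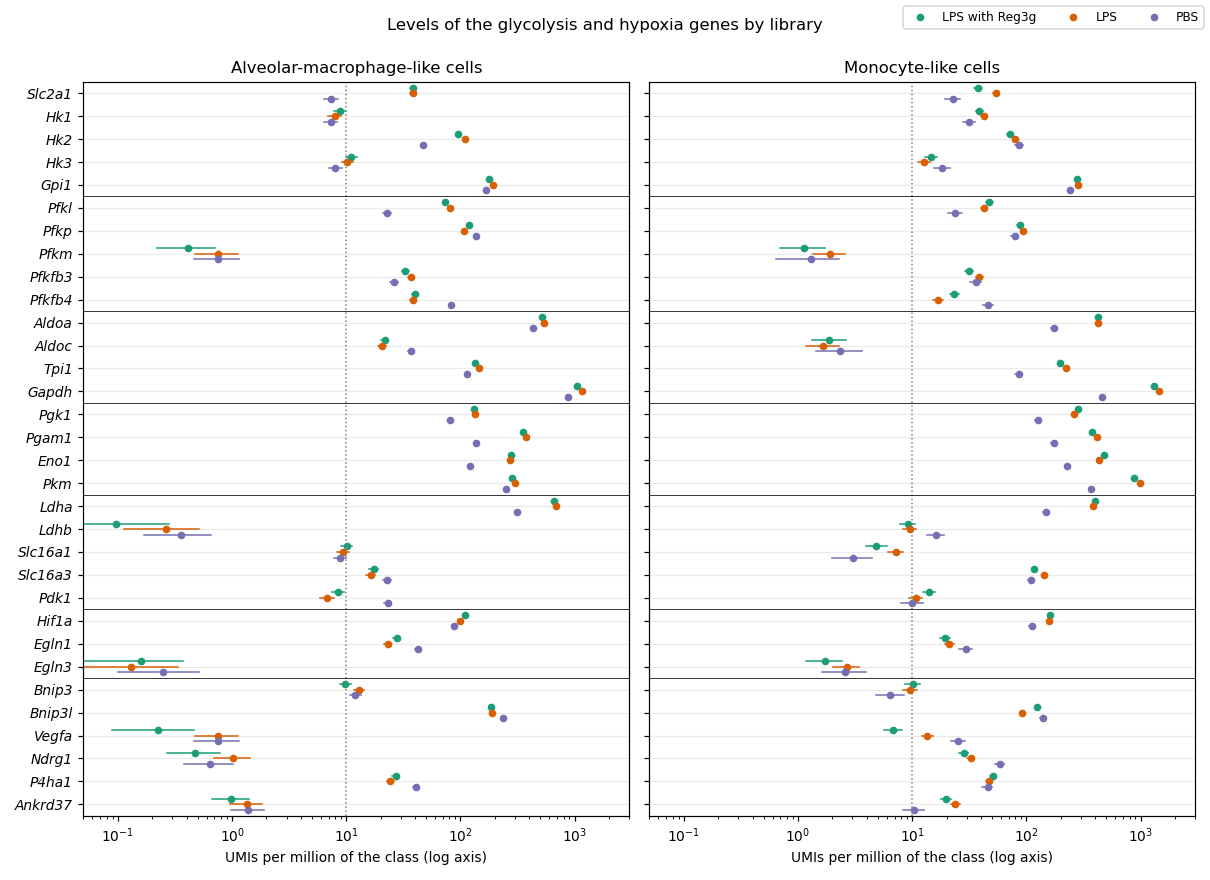
CPM (log axis) for each of the 32 genes, in alveolar-macrophage-like cells on the left and monocyte-like cells on the right, with the LPS with Reg3g, LPS and PBS libraries as coloured points and 95% counting intervals as bars. The dotted line is the floor of 10 CPM, and the PBS point of Slc2a1 lies at 7.37 CPM on the left, against 38.3 CPM with LPS and Reg3g and 38.2 CPM with LPS.

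The promoters of the 4 genes with the largest log2 ratio in either direction are shown because they carry the core sequence that HIF binds. The windows are the 250 bases before the annotated start, from RefSeq on GRCm38.p6, 5′ to 3′ on the strand of the gene. Capitals mark ACGTG or GCGTG, or the same core on the other strand (CACGT or CACGC), and a CACGTG would count on both strands. The Slc2a1 window is chr4:119108495-119108744 on the plus strand and the Pfkl window chr10:78009808-78010057 on the minus strand. The Pgam1 window is chr19:41911621-41911870 and the Pdk1 window chr2:71872974-71873223, both on the plus strand. Pdk1 has another annotated start, whose window (chr2:71874654-71874903) holds 0 cores, and its window with most cores is the one shown.
Slc2a1: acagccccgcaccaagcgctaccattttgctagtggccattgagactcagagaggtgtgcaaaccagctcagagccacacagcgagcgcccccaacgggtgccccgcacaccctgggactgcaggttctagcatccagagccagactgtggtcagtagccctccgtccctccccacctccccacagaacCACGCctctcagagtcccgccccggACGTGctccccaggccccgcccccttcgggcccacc
Pfkl: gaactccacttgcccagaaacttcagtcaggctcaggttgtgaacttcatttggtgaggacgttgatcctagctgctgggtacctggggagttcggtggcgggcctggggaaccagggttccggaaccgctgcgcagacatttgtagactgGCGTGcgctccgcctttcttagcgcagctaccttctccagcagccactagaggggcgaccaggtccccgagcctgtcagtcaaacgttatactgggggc
Pgam1: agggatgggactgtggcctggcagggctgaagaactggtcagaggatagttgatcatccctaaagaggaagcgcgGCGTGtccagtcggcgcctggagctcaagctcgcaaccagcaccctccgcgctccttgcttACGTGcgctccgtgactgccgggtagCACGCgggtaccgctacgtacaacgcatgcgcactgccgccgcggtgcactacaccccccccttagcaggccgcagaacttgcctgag
Pdk1: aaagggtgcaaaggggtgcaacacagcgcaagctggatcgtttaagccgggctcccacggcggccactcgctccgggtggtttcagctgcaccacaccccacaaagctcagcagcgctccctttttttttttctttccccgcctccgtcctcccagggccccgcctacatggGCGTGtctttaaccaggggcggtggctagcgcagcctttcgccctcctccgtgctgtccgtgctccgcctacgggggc
The core of Slc2a1 nearest the start lies 36 bases before it, the single core of Pfkl 99 bases and the single core of Pdk1 78 bases before it, and Pgam1 has 3 cores. Of the 32 genes, 30 had a promoter in the table and Bnip3l and Ndrg1 did not. A core stood in the window with most cores of 28 of those 30 genes (93.3%), against 41.5% of 27025 genes in the whole table. Taking the window with most cores favours genes with more annotated starts. Over single windows the shares were 81.8% of 44 windows of the 30 genes and 38.6% of all 32851 windows. The genes were chosen partly as members of the HIF response, so these shares only describe the list. GC content differs too, with a median of 62.8% for the 30 and 52.4% for all, and its part in the share was not tested. The core was present on both sides: Ldha, higher with LPS, had 5 matches, and Pdk1, lower with LPS, had 1 in the window shown. The Ldha matches include a CACGTG 145 bases and another 48 bases before the start, each counted on both strands. A match describes letters in a window and shows no binding.

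Glucose entry and phosphorylation divided by isoenzyme. Hk2, the inducible hexokinase that traps glucose as its phosphate, stood at 95.6 CPM with LPS and Reg3g, 111 CPM with LPS and 47.3 CPM with PBS. Its log2 ratio was 1.22 (1.13 to 1.32) for LPS over PBS and -0.21 (-0.28 to -0.14) for LPS with Reg3g over LPS. The other hexokinases were low in every library, with Hk1 between 7.30 and 8.87 CPM and Hk3, the form found in myeloid cells, at 11.1 CPM with LPS and Reg3g, 10.2 CPM with LPS and 8.05 CPM with PBS. Gpi1, which turns glucose phosphate into fructose phosphate, had 179 CPM with LPS and Reg3g, 192 CPM with LPS and 167 CPM with PBS, a log2 ratio of 0.19 (0.14 to 0.25) for LPS over PBS. Of the genes in this group, Slc2a1 and Hk2 were past 2-fold and the others were not.

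At phosphofructokinase, the committed step of glycolysis, the subunits parted. Pfkl, the liver-type subunit, had 73.3 CPM with LPS and Reg3g, 81.7 CPM with LPS and 22.6 CPM with PBS, and its log2 ratio of LPS over PBS was 1.85 (1.73 to 1.98). Pfkp, the platelet-type subunit, had 118 CPM with LPS and Reg3g, 108 CPM with LPS and 136 CPM with PBS. The Pfkp log2 ratio of LPS over PBS was -0.33 (-0.40 to -0.26), which became 0.01 under trimmed-mean scaling. Pfkm, the muscle-type subunit, was under 1 CPM in each library.

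Pfkfb3 and Pfkfb4 encode bifunctional enzymes that make and remove the strongest activator of phosphofructokinase. Pfkfb3 had 33.0 CPM with LPS and Reg3g, 36.7 CPM with LPS and 26.2 CPM with PBS, a log2 ratio of LPS over PBS of 0.49 (0.35 to 0.62). Pfkfb4 had 40.1 CPM with LPS and Reg3g, 38.3 CPM with LPS and 82.9 CPM with PBS, a log2 ratio of -1.11 (-1.22 to -1.01). The pair thus lay on opposite sides of their PBS levels.

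The aldolase and triose steps differed by less than 2-fold. Aldoa, the main aldolase, had 520 CPM with LPS and Reg3g, 541 CPM with LPS and 429 CPM with PBS. Tpi1, the triose phosphate isomerase, had 135 CPM with LPS and Reg3g, 145 CPM with LPS and 115 CPM with PBS. Gapdh, often used as a reference gene, had 1043 CPM with LPS and Reg3g, 1155 CPM with LPS and 867 CPM with PBS. The log2 ratios of LPS over PBS were 0.34 (0.30 to 0.37) for Aldoa, 0.34 (0.27 to 0.41) for Tpi1 and 0.41 (0.39 to 0.44) for Gapdh. Aldoc, an aldolase best known from brain, lay the other way with 21.7 CPM with LPS and Reg3g, 20.7 CPM with LPS and 37.0 CPM with PBS, a log2 ratio of -0.84 (-0.98 to -0.69).

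Lower glycolysis split into a pair past 2-fold and a pair short of it. Pgam1, the phosphoglycerate mutase, had 350 CPM with LPS and Reg3g, 373 CPM with LPS and 138 CPM with PBS, a log2 ratio of LPS over PBS of 1.44 (1.38 to 1.49). Eno1, the enolase, had 279 CPM with LPS and Reg3g, 270 CPM with LPS and 121 CPM with PBS, a log2 ratio of 1.16 (1.10 to 1.22). Pgk1, the ATP-forming phosphoglycerate kinase, had 132 CPM with LPS and Reg3g, 134 CPM with LPS and 81.6 CPM with PBS, a log2 ratio of 0.72 (0.64 to 0.79). Pkm, pyruvate kinase, had 283 CPM with LPS and Reg3g, 302 CPM with LPS and 250 CPM with PBS, a log2 ratio of 0.27 (0.22 to 0.31). Between LPS with Reg3g and LPS these 4 genes had log2 ratios between -0.09 and 0.05. Reads of near-identical copies may be split: the copy Gpi-ps had up to 2.43% of the summed UMIs of Gpi1 and itself, and Eno1b under 1% of those with Eno1.

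Among the genes that decide where pyruvate goes, Ldha was higher with LPS and Pdk1 lower. Ldha, the lactate dehydrogenase subunit that favours lactate formation, had 663 CPM with LPS and Reg3g, 681 CPM with LPS and 313 CPM with PBS, a log2 ratio of 1.12 (1.09 to 1.16). Ldhb, the other subunit, stayed under 1 CPM in each library. Neither lactate carrier was past 2-fold: Slc16a3 (MCT4, an exporter) had 17.3 CPM with LPS and Reg3g, 16.4 CPM with LPS and 22.8 CPM with PBS, a log2 ratio of LPS over PBS of -0.48 (-0.65 to -0.31). Slc16a1 (MCT1) had 10.1 CPM with LPS and Reg3g, 9.32 CPM with LPS and 8.87 CPM with PBS.

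Hif1a and its oxygen sensors differed by less than 2-fold. Hif1a, the regulated HIF subunit, had 109 CPM with LPS and Reg3g, 99.8 CPM with LPS and 87.6 CPM with PBS, a log2 ratio of LPS over PBS of 0.19 (0.11 to 0.26). Egln1, the main oxygen-sensing prolyl hydroxylase, had 27.7 CPM with LPS and Reg3g, 23.0 CPM with LPS and 42.3 CPM with PBS, a log2 ratio of -0.88 (-1.02 to -0.74). Egln3, a hydroxylase that HIF itself induces, stayed under 1 CPM. HIF is controlled mainly as a protein, which these data do not measure.

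The remaining hypoxia targets were not among the genes higher with LPS. P4ha1, a collagen prolyl hydroxylase subunit, had 27.1 CPM with LPS and Reg3g, 24.2 CPM with LPS and 40.4 CPM with PBS, a log2 ratio of -0.74 (-0.87 to -0.60). Bnip3l, a receptor for the removal of mitochondria, had 186 CPM with LPS and Reg3g, 189 CPM with LPS and 237 CPM with PBS, and its log2 ratio of -0.32 (-0.37 to -0.27) became 0.01 under trimmed-mean scaling. Its relative Bnip3 had 9.82 CPM with LPS and Reg3g, 12.9 CPM with LPS and 12.0 CPM with PBS. Vegfa (an angiogenic factor), Ndrg1 (a stress-response gene) and Ankrd37 (an ankyrin-repeat gene), all responders to low oxygen, ranged from 0.223 to 1.39 CPM over the 3 libraries. These 3 therefore gave no ratio in alveolar-macrophage-like cells.

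**Figure D2:**
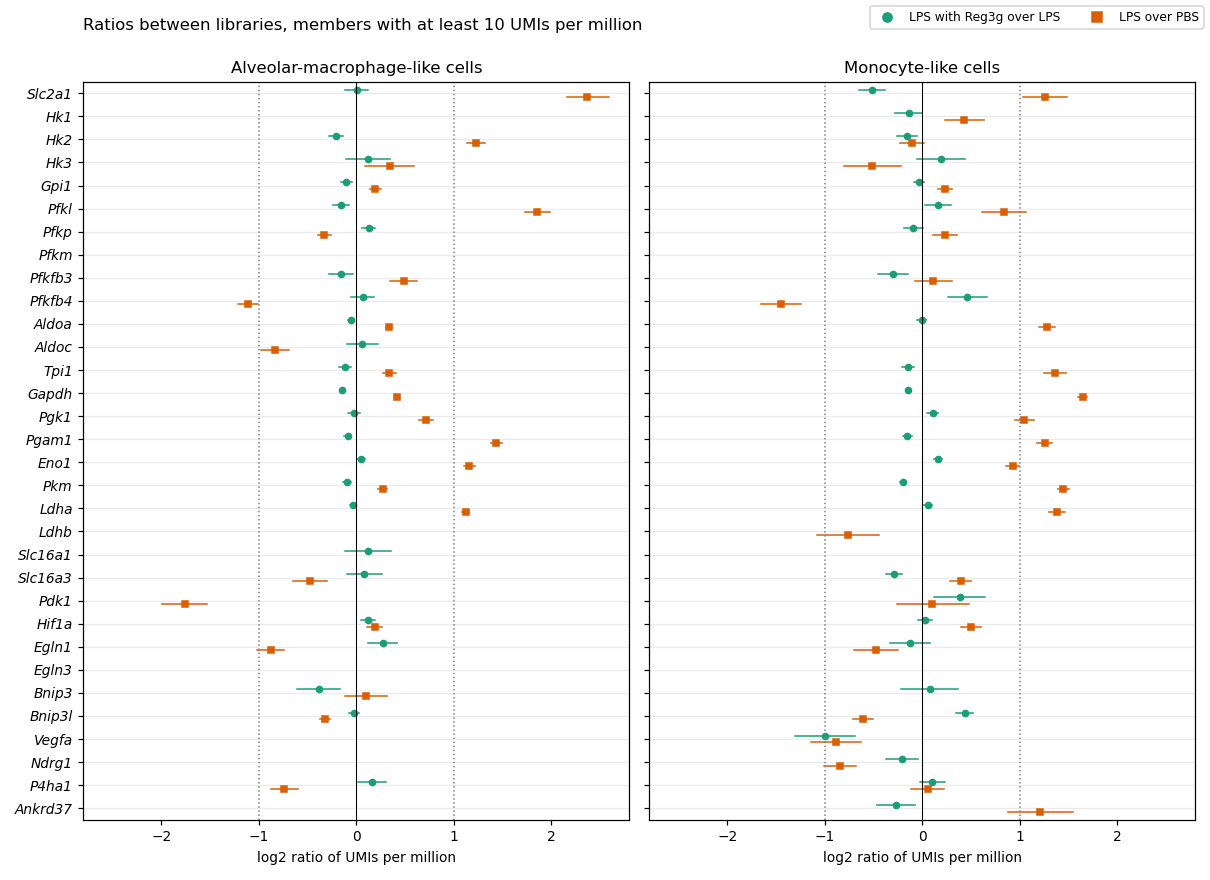
Log2 ratios of CPM with 95% counting intervals for the genes that reached 10 CPM in at least 1 library of a contrast, in alveolar-macrophage-like cells on the left and monocyte-like cells on the right. Circles are LPS with Reg3g over LPS, squares are LPS over PBS, dotted lines mark 2-fold, and on the left the squares run from -1.76 for Pdk1 to 2.37 for Slc2a1 while the circles run from -0.39 for Bnip3 to 0.27 for Egln1.

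For LPS with Reg3g over LPS in alveolar-macrophage-like cells, 24 of the 32 genes passed the floor, 0 were at least 2-fold higher and 0 at least 2-fold lower. Over all 7157 genes past the floor the shares were 0.0559% higher and 0.0559% lower, so a count of 0 is near the background. The median log2 ratio was -0.02 over the 24 genes and 0.03 over all genes. The lowest was Bnip3 at -0.39 (-0.61 to -0.17) and the highest Egln1 at 0.27 (0.12 to 0.42). Slc2a1 lay at 0.00 (-0.11 to 0.12) and Hif1a at 0.12 (0.05 to 0.19). Without a second library per group, ratios of this size cannot be set against the spread between libraries.

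Related enzymes can stand in for each other, so the share of each gene in the UMIs of its family was taken, with the limit that 3′ ends of different genes may be captured unequally. Among the phosphofructokinase subunits of alveolar-macrophage-like cells, Pfkl made up 38.3% (37.0 to 39.5) with LPS and Reg3g, 42.9% (41.6 to 44.2) with LPS and 14.2% (13.2 to 15.3) with PBS. Pfkfb3 made up 45.2% of the Pfkfb pair with LPS and Reg3g, 48.9% with LPS and 24.0% with PBS. The hexokinases were mostly Hk2, at 82.7% with LPS and Reg3g, 85.9% with LPS and 75.5% with PBS. Monocyte-like cells were less dominated by Hk2, at 57.4% with LPS and Reg3g, 59.1% with LPS and 63.3% with PBS. In them Slc16a3 made up over 95% of the lactate carrier pair in each library, where in alveolar-macrophage-like cells it made up 63.1% with LPS and Reg3g, 63.7% with LPS and 72.0% with PBS. A share within a family is not touched by the scaling to the class total.

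**Figure D3:**
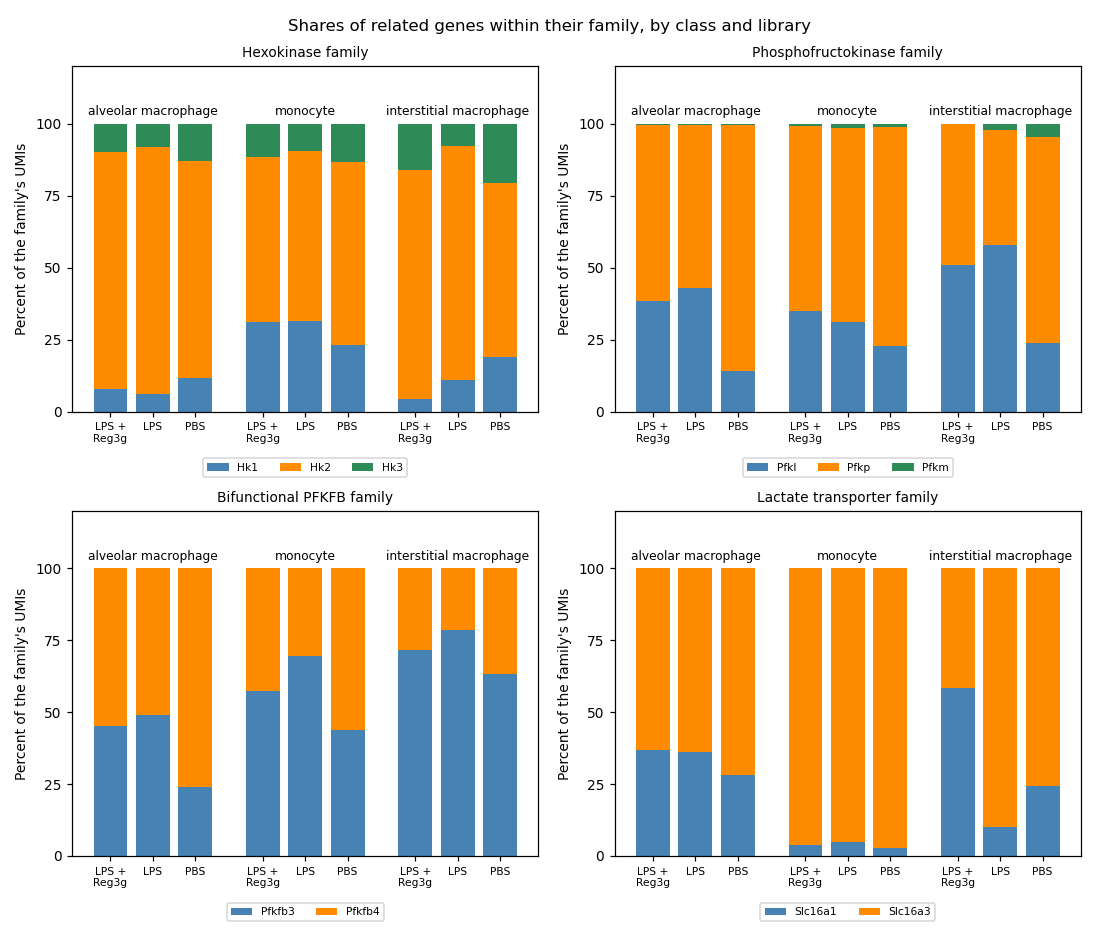
Percent of the UMIs of a family held by each of its genes, stacked to 100%, for hexokinases, phosphofructokinase subunits, the Pfkfb pair and the lactate carriers. Bars within each cell class are the LPS with Reg3g, LPS and PBS libraries, and the Pfkl share in alveolar-macrophage-like cells is 38.3% with LPS and Reg3g, 42.9% with LPS and 14.2% with PBS.

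The same genes were followed in single cells by thinning each cell to 2000 UMIs. In the alveolar class, cells with a Slc2a1 UMI made up 7.05% (6.28 to 7.89) with LPS and Reg3g, 6.99% (6.28 to 7.75) with LPS and 1.48% (1.11 to 1.94) with PBS, against 2.90%, 5.49% and 3.06% of lymphoid cells in the same libraries (69, 91 and 98 cells). The lymphoid shares rest on few cells, and how much of any share is free RNA was not tested. For Pgam1 the shares were 46.4% with LPS and Reg3g, 49.6% with LPS and 21.5% with PBS, against 34.8%, 39.6% and 13.3% of lymphoid cells. For Pdk1 they were 2.23%, 1.47% and 4.11%, against 8.70%, 3.30% and 11.2% of lymphoid cells, the class with the highest Pdk1 level. Expression by the lymphoid cells themselves was not told apart from free RNA, so their shares give no background for any of these genes.

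Without thinning, the shares of alveolar-macrophage-like cells with a UMI were 23.7% with LPS and Reg3g, 20.0% with LPS and 5.50% with PBS for Slc2a1, and 82.1%, 78.7% and 60.1% in the same libraries for Pgam1. For Pdk1 the unthinned shares were 6.14%, 4.05% and 16.2%. The median depth was 7554, 6025 and 7665 UMIs for alveolar-macrophage-like cells and 2347, 1947 and 2199 UMIs for lymphoid cells with LPS and Reg3g, LPS and PBS. Thinning left out 72, 203 and 43 alveolar-macrophage-like cells and 52, 93 and 75 lymphoid cells as too shallow.

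Summed over 17 genes from the hexokinases to lactate dehydrogenase, the enzymes took 0.391% of alveolar-macrophage-like UMIs with LPS and Reg3g, 0.413% with LPS and 0.274% with PBS. In thinned single cells the median share was 0.35% (quartiles 0.25% and 0.5%) with LPS and Reg3g, 0.4% (0.3% and 0.5%) with LPS and 0.25% (0.2% and 0.35%) with PBS. The distributions overlapped, with the upper quartile of PBS cells above the lower quartile of both LPS libraries. In monocyte-like cells the same sum took 0.486% of UMIs with LPS and Reg3g, 0.513% with LPS and 0.225% with PBS.

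Within each library the alveolar-macrophage-like clusters differed among themselves, which is given as a description. In the LPS library Slc2a1 had 39.5 CPM in the Cxcl3 Car4 cluster, 43.1 CPM in the Fstl1 Inhba cluster and 25.1 CPM in the Tnf Cxcl1 cluster. The main PBS cluster, led by Fabp1 and Krt19, had 7.45 CPM. Ldha had 698, 760 and 505 CPM in those 3 clusters of the LPS library and 316 CPM in the PBS cluster. Pdk1 had 5.22, 4.37 and 14.7 CPM in the 3 clusters with LPS, against 23.2 CPM in the PBS cluster, so that the Tnf Cxcl1 cluster lay nearer to PBS for Slc2a1, Ldha and Pdk1. Hk2 did not share this order, with 101, 113 and 136 CPM in the 3 clusters with LPS and 48.3 CPM in the PBS cluster. The Tnf Cxcl1 cluster held 26.8% of the class with LPS and Reg3g and 19.3% with LPS.

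**Figure D4:**
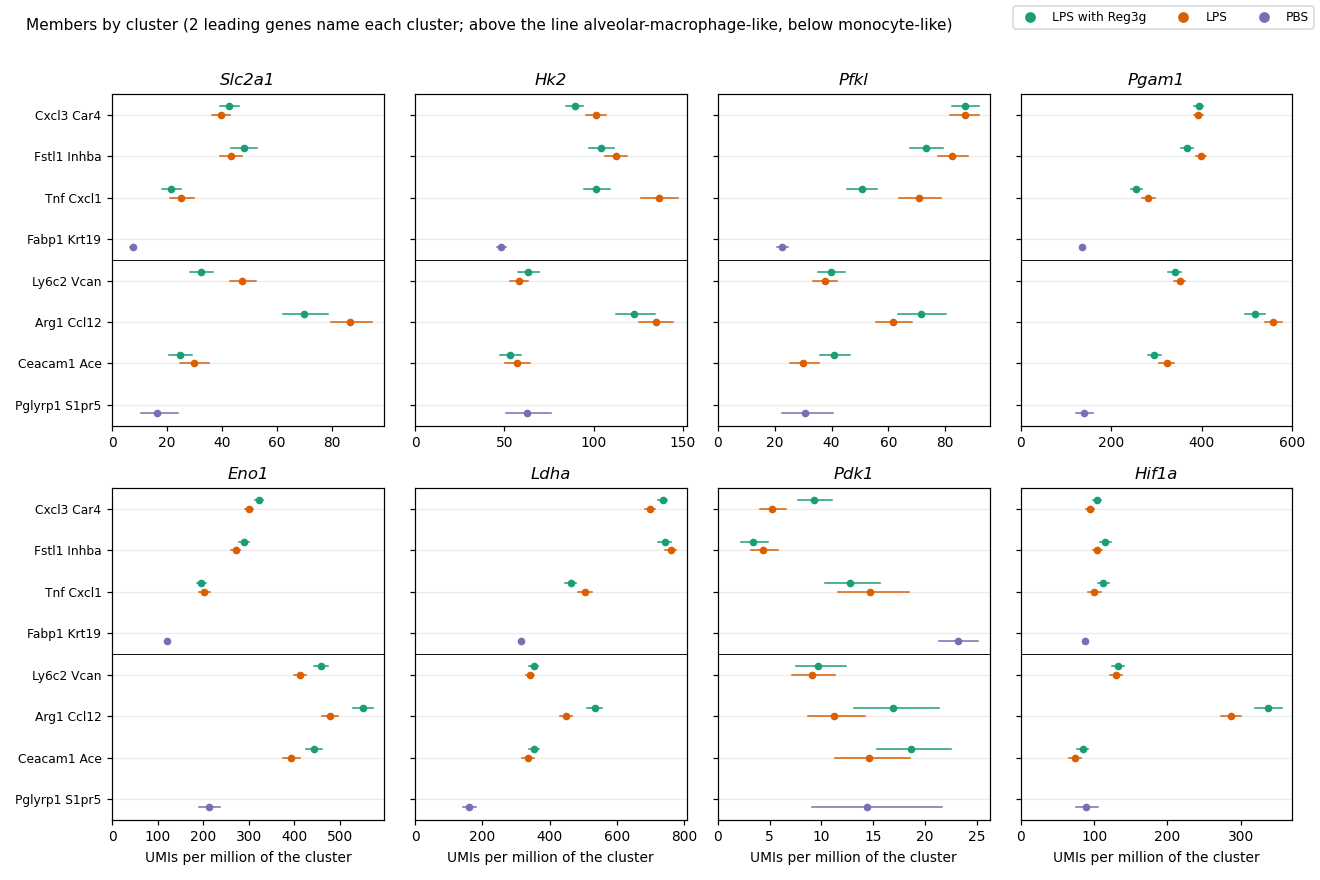
CPM of 8 of the genes in single clusters, each named by 2 of its leading genes, with alveolar-macrophage-like clusters above the line and monocyte-like clusters below it, and with 95% counting intervals, where the cluster that holds 71.0% of PBS monocyte-like cells is not drawn. In the LPS library the Slc2a1 point of the Tnf Cxcl1 cluster (25.1 CPM) lies between those of the Fstl1 Inhba cluster (43.1 CPM) and the PBS Fabp1 Krt19 cluster (7.45 CPM), and the Arg1 Ccl12 cluster has the highest Hif1a level shown (338 CPM with LPS and Reg3g, 286 CPM with LPS).

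In monocyte-like cells the main gene of each enzyme from aldolase to lactate dehydrogenase stood higher with LPS than with PBS, Eno1 by a little less than 2-fold. Of the 32 genes 27 passed the floor, 9 were past 2-fold on the higher side with LPS (background 11% of 7664 genes) and 1 on the lower side (background 8.55%). The median log2 ratio was 0.39, against 0.03 over all genes, and median-of-ratios scaling put the all-gene median at 0.14. Gapdh had 1296 CPM with LPS and Reg3g, 1435 CPM with LPS and 459 CPM with PBS, a log2 ratio of LPS over PBS of 1.65 (1.60 to 1.69). Pkm had 869 CPM with LPS and Reg3g, 997 CPM with LPS and 366 CPM with PBS, a log2 ratio of 1.45 (1.39 to 1.50). Ldha had 401 CPM with LPS and Reg3g, 386 CPM with LPS and 148 CPM with PBS, a log2 ratio of 1.38 (1.30 to 1.47). Neutrophil markers moved in the same direction: the 13 of that list summed to 1306 CPM with LPS and Reg3g, 919 CPM with LPS and 405 CPM with PBS, with Ly6g at 0 in PBS, and their part in these ratios was not tested.

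The other genes past 2-fold in monocyte-like cells were Tpi1, Aldoa, Pgam1, Slc2a1, Ankrd37 and Pgk1 on the higher side, with log2 ratios of LPS over PBS of 1.36, 1.28, 1.26, 1.26, 1.21 and 1.05. Pfkfb4 was the lower one, and it is named after its value was seen. It had 23.4 CPM with LPS and Reg3g, 17.0 CPM with LPS and 46.3 CPM with PBS, a log2 ratio of -1.45 (-1.66 to -1.24). Eno1 had 479 CPM with LPS and Reg3g, 429 CPM with LPS and 226 CPM with PBS, a log2 ratio of 0.93 (0.86 to 1.00). The genes that led in alveolar-macrophage-like cells ranked otherwise here. Hk2 had 71.9 CPM with LPS and Reg3g, 80.1 CPM with LPS and 86.1 CPM with PBS, and Pfkl had 47.4 CPM with LPS and Reg3g, 42.5 CPM with LPS and 23.8 CPM with PBS. The difference between the classes was not tested.

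For LPS with Reg3g over LPS in monocyte-like cells, 27 of the 32 genes passed the floor and 0 were 2-fold apart (background 0.0947% of 7389 genes higher and 0.0541% lower). Vegfa, named after its value was seen, lay at the edge, with 6.79 CPM with LPS and Reg3g, 13.6 CPM with LPS and 25.1 CPM with PBS. Its log2 ratio of LPS with Reg3g over LPS was -0.999 (-1.31 to -0.69), a little short of 2-fold. Slc2a1 had 37.8 CPM with LPS and Reg3g, 54.0 CPM with LPS and 22.6 CPM with PBS, a log2 ratio of LPS with Reg3g over LPS of -0.51 (-0.65 to -0.38). Pfkfb4 lay at 0.46 (0.26 to 0.67), and Bnip3l at 0.43 (0.35 to 0.52).

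A cluster led by Arg1 and Ccl12 carried the highest Hif1a level among the monocyte-like clusters of both LPS libraries. Hif1a had 338 CPM there with LPS and Reg3g and 286 CPM with LPS, where the Ly6c2 Vcan cluster had 132 CPM with LPS and Reg3g and 130 CPM with LPS. Slc2a1 had 70.0 CPM in the Arg1 Ccl12 cluster with LPS and Reg3g and 86.7 CPM with LPS. This cluster made up 19.9% of monocyte-like cells with LPS and Reg3g, 25.2% with LPS and 0.0440% with PBS. Another cluster, led by Ceacam1 and Ace, made up 40.0% with LPS and Reg3g, 27.7% with LPS and 1.19% with PBS. Over the whole class Hif1a had 162 CPM with LPS and Reg3g, 159 CPM with LPS and 112 CPM with PBS. The class ratios given above, in both contrasts, therefore mix clusters whose shares differ between libraries.

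The smaller classes rest on far fewer UMIs. Of the interstitial-macrophage-like cells, 95.1% with LPS came from a cluster led by Cxcl13 and Ccl7 and 99.8% with PBS from a cluster led by Mmp12 and C1qa, so the ratios of this class compare nearly separate clusters. In interstitial-macrophage-like cells, 164 with LPS and 498 with PBS, 26 of the 32 genes passed the floor, 11 were past 2-fold on the higher side with LPS (background 9.92%) and 2 on the lower side (background 15.9%). Pkm had 639 CPM with LPS and 160 CPM with PBS, a log2 ratio of 2.00 (1.79 to 2.21). Pgk1 had 181 CPM with LPS and 49.4 CPM with PBS, and Hk2 had 202 CPM with LPS and 57.0 CPM with PBS, log2 ratios of 1.88 and 1.83. Pfkp went the other way with 32.1 CPM with LPS and 75.9 CPM with PBS, a log2 ratio of -1.24 (-1.99 to -0.57) on 20 and 169 UMIs. The remaining genes named by the rule were Pgam1, Gapdh, Aldoa and Eno1, with log2 ratios from 1.01 to 1.46.

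Dendritic cells are given by type. The all-gene background also differed between the types, and differences between them were not tested. Among type 1 cells 23 genes passed the floor, 2 were past 2-fold and higher with LPS (background 4.65%) and 1 lower (background 6.61%), each with under 50 CPM. In type 2 cells 26 passed, 5 were higher (background 13.9%) and 1 lower (background 9.51%), led by Pkm with 582 CPM with LPS and 173 CPM with PBS, a log2 ratio of 1.75 (1.54 to 1.95). In migratory cells 21 passed, 4 were higher (background 10.9%) and 0 lower (background 10.1%). The highest was Ndrg1, with 183 CPM with LPS and 53.4 CPM with PBS, a log2 ratio of 1.78 (1.29 to 2.31). Pfkp in these cells had 137 CPM with LPS and 60.7 CPM with PBS, a log2 ratio of 1.18 (0.70 to 1.68). Pkm had 249 CPM with LPS and 120 CPM with PBS there, and Eno1 had 67.3 CPM with LPS and 30.3 CPM with PBS.

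In lymphoid cells, a minor admixture of the sort, 28 genes passed, 11 were at least 2-fold higher with LPS (background 13.4%) and 1 lower (background 13.7%). Gapdh, 1 of the 11 higher genes, had 849 CPM with LPS and 322 CPM with PBS there, and Slc2a1 had a log2 ratio of 0.00. Alveolar macrophage markers in lymphoid cells summed to 1599 CPM with LPS and Reg3g, 3579 CPM with LPS and 2435 CPM with PBS, and the part of free RNA or mixed cells in these values was not tested. In structural cells, 59 with LPS and 66 with PBS, 30 passed, 9 were higher (background 11.8%) and 3 lower (background 21.6%). Hk2, 1 of the 9 higher genes, had 98.7 CPM with LPS and 26.1 CPM with PBS.

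For LPS with Reg3g over LPS the smaller classes held few genes past 2-fold, each of them under 50 CPM. In interstitial-macrophage-like cells 27 passed the floor, 1 was past 2-fold on the higher side (background 6.93%) and 3 on the lower side (background 6.67%). Among type 1 dendritic cells it was 2 (background 5.2%) and 3 (background 5.41%) of 23, among type 2 dendritic cells 1 (background 7.48%) and 2 (background 6.45%) of 27, and among migratory dendritic cells 1 (background 3.09%) and 0 (background 3.39%) of 21. In neutrophil-like cells it was 2 (background 4.66%) and 0 (background 4.99%) of 27, and in lymphoid cells 0 (background 6.87%) and 1 (background 9.3%) of 27. Ndrg1, named after its values were seen, was on the lower side in 3 of these classes. It had 1 raw UMI with LPS and Reg3g against 9 with LPS in interstitial-macrophage-like cells, out of 595560 and 622722 UMIs of the class. In type 1 dendritic cells it had 4 against 58, out of 432818 and 1486165 UMIs, so the raw counts overstate the difference. In lymphoid cells it had 6 against 19, out of 442017 and 587869 UMIs.

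**Figure D5:**
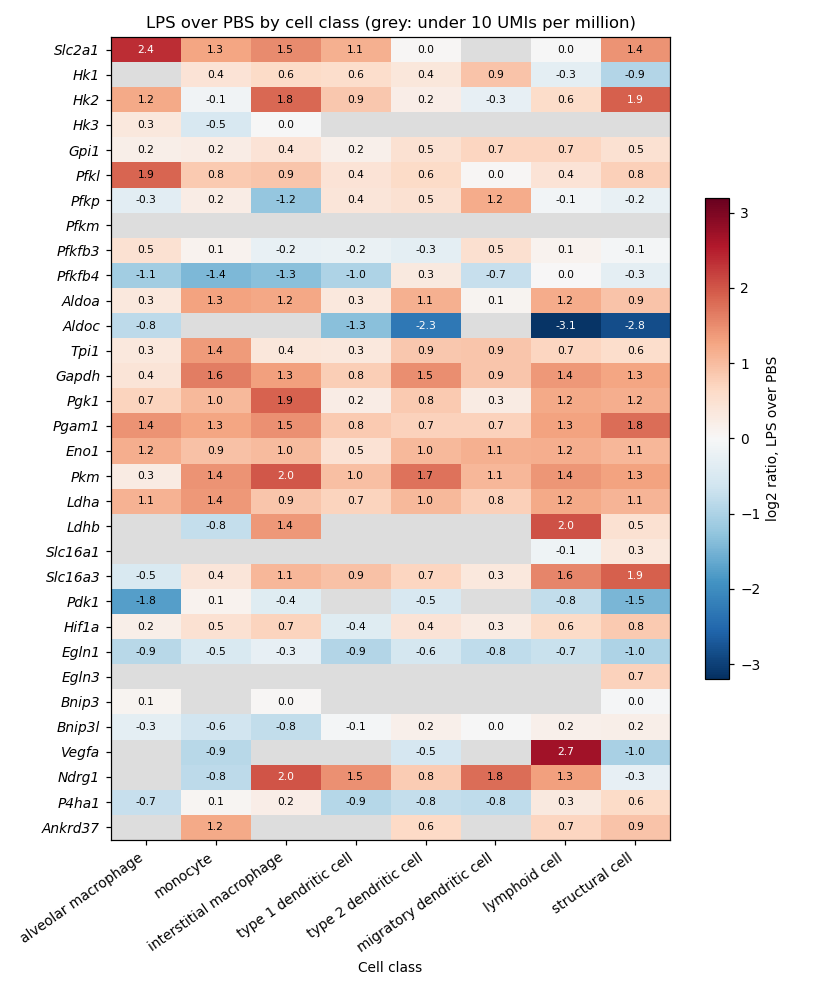
Log2 ratio of LPS over PBS for each of the 32 genes (down) in each cell class with at least 50 cells in both libraries (across), coloured red for higher with LPS and blue for lower, with grey where both libraries were under 10 CPM. The row of Pkm runs from 0.27 in alveolar-macrophage-like cells to 2.00 in interstitial-macrophage-like cells, and that of Slc2a1 is highest at 2.37 in alveolar-macrophage-like cells.

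Some genes were highest in the same class in all 3 libraries, among the classes with at least 50 cells in a library. That minimum left out neutrophil-like cells with PBS (12 cells) and structural cells with LPS and Reg3g (37 cells), so the classes ranked differ between libraries. Pfkfb3 was highest in migratory dendritic cells, at 545 CPM with LPS and Reg3g, 483 CPM with LPS and 336 CPM with PBS, and its next class with LPS and Reg3g had 86.7 CPM. Pfkp was highest in type 1 dendritic cells, at 360 CPM with LPS and Reg3g, 373 CPM with LPS and 287 CPM with PBS. Aldoa, Ldha, Bnip3l and Pfkfb4 were highest in alveolar-macrophage-like cells, as was Aldoc. Pkm, Eno1, Pgk1 and Ankrd37 were highest in monocyte-like cells, and Slc16a1 and Pdk1 in lymphoid cells. The counting intervals of the first and second class overlapped in all 3 libraries for Slc16a1 and Ankrd37, in both LPS libraries for Pfkfb4 and Pdk1, with LPS and Reg3g and with PBS for Aldoc, and with PBS for Pgk1.

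A further list of 68 genes of neighbouring pathways, 67 of them in the files, was set beside the 32. In alveolar-macrophage-like cells 37 passed the floor, of which 4 were past 2-fold on the higher side with LPS (background 5.61%) and 5 on the lower side (background 13.9%, close to the share of the list), and their median log2 ratio was -0.11. Ier3, a stress-response gene, had 211 CPM with LPS and Reg3g, 311 CPM with LPS and 64.3 CPM with PBS, a log2 ratio of LPS over PBS of 2.27. Hilpda, a hypoxia-inducible lipid droplet protein, had 132 CPM with LPS and Reg3g, 238 CPM with LPS and 74.1 CPM with PBS. Its log2 ratio was 1.68 for LPS over PBS and -0.85 for LPS with Reg3g over LPS, the lowest of the list in that contrast. Hmox1, haem oxygenase, had 746 CPM with LPS and Reg3g, 556 CPM with LPS and 155 CPM with PBS, and Mif, a cytokine, had 170 CPM with LPS and Reg3g, 197 CPM with LPS and 78.6 CPM with PBS.

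On the lower side, Pdk4, a sister of Pdk1, had 3.32 CPM with LPS and Reg3g, 3.24 CPM with LPS and 20.2 CPM with PBS, a log2 ratio of LPS over PBS of -2.64. Zfp395 had 4.85 CPM with LPS and Reg3g, 2.91 CPM with LPS and 18.2 CPM with PBS, also -2.64 on the log2 scale. Pygl, which releases glucose phosphate from glycogen, had 90.9 CPM with LPS and Reg3g, 79.1 CPM with LPS and 206 CPM with PBS. Angptl4, an inhibitor of lipoprotein lipase, had 30.3 CPM with LPS and Reg3g, 34.3 CPM with LPS and 93.6 CPM with PBS, and Bhlhe40, a transcriptional repressor, had 140 CPM with LPS and Reg3g, 113 CPM with LPS and 269 CPM with PBS. Of the 7 pentose phosphate genes, all past the floor, 0 were 2-fold apart between LPS and PBS. In monocyte-like cells 36 of the list passed, 7 were higher (background 11%) and 1 lower (background 8.55%) with a median of 0.10, led by Mif at 154 CPM with LPS and Reg3g, 208 CPM with LPS and 34.2 CPM with PBS.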

How the data were processed

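Droplet libraries of mouse lung cells were sequenced from transcript 3′ ends. The deposited matrices hold raw UMI counts per gene and cell barcode, with no normalization, filtered to called barcodes of at least 500 UMIs. The submitters' processing notes name Cell Ranger 9.0.1, Seurat 4.4.0, bcl2fastq 5.0.1 and mm10.

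Groups came from the labels. Cells with under 500 genes, under 1000 UMIs or over 15% mitochondrial UMIs were removed. Doublets were scored with Scrublet in scanpy 1.11.5 and removed at 0.4% per 1000 barcodes. Filtering and doublet removal left 9281, 13015 and 7860 cells for LPS with Reg3g, LPS and PBS. The 3 libraries were clustered together on 2000 variable genes, 30 components and 15 neighbours (Leiden, leidenalg 0.10.2, resolution 1), giving 28 clusters that were named from 17 marker lists. CPM are the UMIs of a gene in a class and library over all UMIs there. Aldoa is listed under 2 identifiers, which were summed.

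Ratios carry exact binomial intervals, and family and cell shares Clopper-Pearson intervals, which cover counting error only. There was no test between groups. A gene was measured in a contrast at 10 CPM or more in either library and counted at 2-fold. Outside alveolar-macrophage-like cells, genes past 2-fold between LPS and PBS with 50 CPM or more were named, up to 8 per class, with genes highest in that class in all 3 libraries. In type 2 dendritic, lymphoid and structural cells only examples of such genes were named. Of the further pathway list, every gene past 2-fold between LPS and PBS in alveolar-macrophage-like cells was named. The ratio procedure was tested on simulated data. The 32 genes, the lists and the classes were chosen with earlier results of these data known. Alternatives for filters, doublets, clustering, scaling, floor and weighting were run. Python 3.11.15, numpy 2.4.6, scipy 1.17.1 and pandas 2.3.3 were used.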

Additional observations from a re-analysis of the deposited data

Results flagged for a closer look

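Pfkp, the platelet-type phosphofructokinase subunit, lay on opposite sides of its PBS level in 2 classes. Its log2 ratio of LPS over PBS was 1.18 in migratory dendritic cells, on 279 UMIs with LPS and 42 with PBS, and -1.24 in interstitial-macrophage-like cells, on 20 UMIs with LPS and 169 with PBS. The log2 ratios differ by 2.42, and with 1 library per group the difference was not tested.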

How the results depend on the processing

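No paired analysis was possible because each group has 1 library. In alveolar-macrophage-like cells the count of genes 2-fold apart was 8 for LPS over PBS, with a range of 6 (floor of 50 CPM) to 10 (all cells of a library together), and 0 for LPS with Reg3g over LPS under every alternative run. In monocyte-like cells it was 10 for LPS over PBS, with a range of 8 to 11. For LPS with Reg3g over LPS in monocyte-like cells the count was 0 and became 1, through Vegfa, under the stricter cell filter, with no or doubled doublet removal, at Leiden resolution 2, and with median-of-ratios or trimmed-mean scaling. Over 1428 values of single genes under alternatives, 1253 stayed within their counting interval and 175 left it, and 0 values past 2-fold changed sign. Of 18 values past 2-fold, 12 stayed past it under every alternative. Genes under 10 CPM, and the classes with few cells, are limited by depth, and differences between single libraries may be those of the animals or of the preparation.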
